A study of Mus musculus with 8 samples.

Results

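The genes described here are receptors through which metabolites and local mediators act on fat cells, most of them by way of the inhibitory G protein Gi. The list holds 8 genes, and 6 of them (Hcar1, Hcar2, Ptger3, Ffar2, Ffar4 and Sucnr1) had a named probe set, of 22180 genes with one. Adora1, the A1 adenosine receptor, and Adra2a, an adrenergic receptor that restrains lipolysis, had no probe set under their own symbol and were not analysed here. The set was chosen by the contrast of wild-type (WT) with Abhd15 KO on these same arrays, in which Hcar2 had stood out, so differences between the labels are given for the 6 members as a description and carry no test.

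The tissue was brown fat, which burns lipid to make heat, taken from male C57BL/6J mice on normal chow at 14 weeks of age. The mice had been fasted overnight and then given chow for 1 h. The WT group held 3 mice and the Abhd15 KO group held 5, with 1 Affymetrix Mouse Gene 2.0 ST array per mouse. Abhd15 encodes an alpha/beta hydrolase domain protein of fat cells. The sources used here do not say how the allele was made.

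When Gi is activated, adenylyl cyclase makes less cyclic AMP, protein kinase A is less active, and the lipases of the fat droplet release fewer fatty acids. Insulin restrains the same pathway by another route, through phosphodiesterase 3B, which breaks cyclic AMP down. Hcar1 responds to lactate, Hcar2 to the ketone body beta-hydroxybutyrate and to niacin, Ptger3 to prostaglandin E2 and Sucnr1 to succinate. Ffar2 responds to short-chain fatty acids such as acetate. Ffar4, a receptor for long-chain fatty acids, couples to other G proteins as well.

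Promoter windows of the members are shown for Hcar1 and Ffar4. Both lay well above background and tended to run in opposite directions over the arrays, a relation that did not pass adjustment (below). Ptger3, also well above background, had a window that is not shown. The windows come from RefSeq, build GRCm38.p6. They run from 250 bases before to 50 bases after the gene's start, 5′ to 3′ on the gene's strand. That table held a window for 7 of the 8 genes. The entry missing is Hcar2. The Hcar1 window is chr5:123879954-123880253 on the minus strand and the Ffar4 window is chr19:38096829-38097128 on the plus strand. Capitals mark matches to a searched motif.
Hcar1: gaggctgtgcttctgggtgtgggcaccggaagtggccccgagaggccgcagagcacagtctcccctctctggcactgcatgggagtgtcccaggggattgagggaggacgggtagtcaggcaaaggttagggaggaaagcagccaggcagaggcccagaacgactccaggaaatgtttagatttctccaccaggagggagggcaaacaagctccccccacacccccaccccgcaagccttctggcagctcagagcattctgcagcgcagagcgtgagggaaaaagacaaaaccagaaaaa
Ffar4: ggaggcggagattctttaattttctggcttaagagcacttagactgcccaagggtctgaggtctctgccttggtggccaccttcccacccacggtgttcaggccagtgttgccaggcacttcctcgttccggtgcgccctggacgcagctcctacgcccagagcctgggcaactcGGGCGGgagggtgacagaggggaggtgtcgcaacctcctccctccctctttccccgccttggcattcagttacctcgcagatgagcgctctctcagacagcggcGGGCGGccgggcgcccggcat
The letters searched on both strands were AGGTCA, the hexamer bound by nuclear receptors such as PPAR gamma with RXR, the E box CACGTG, the CCAAT box, the GC box GGGCGG and the TATA box TATAAA. The Hcar1 window held none of them. The Ffar4 window held 2 GC boxes and no match to the others. Of 32851 promoter windows of this length, 35.7% held a GC box, 37.4% CCAAT, 16.3% AGGTCA, 13.6% TATAAA and 7.15% an E box. The GC content was 59.7% in the Hcar1 window and 63.7% in the Ffar4 window, against a median of 52.7% over all windows. These matches describe the letters only.

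Values below are log2 units of the deposited, RMA-normalized table. A probe set was taken as dim at or below 2.88 log2, a limit set from olfactory and vomeronasal receptor probe sets, and 13223 genes lay above it in at least 3 arrays. Some facts on the arrays bear on the members. The probe set of Abhd15 read 6.01 ± 0.19 (SD, n = 3) in WT and 6.12 ± 0.27 (SD, n = 5) under the Abhd15 KO label, so it was no lower there. Which part of the gene is missing is not stated in the labels, so each direction rests on them, and Abhd15 KO below always means arrays with that label. WT replicate 2 and Abhd15 KO replicate 1 stood apart, with Angptl8, a circulating protein that restrains lipoprotein lipase after meals, at 7.95 and 7.90 against 10.42 to 10.81 in the other 6 arrays. Their values are named with each member, and each difference is also given without them. Some markers of the labelled tissue were bright in every array: Ucp1 read 12.51 to 12.89, Cidea 12.02 to 12.19 and the adipocyte protein gene Fabp4 12.58 to 12.70. Other brown adipocyte markers read lower but above the dim limit in every array, such as Prdm16 (4.95 to 6.00), Zic1 (4.81 to 5.61) and Dio2 (4.47 to 8.32). In bulk tissue, fewer cells of a type and less RNA per cell cannot be told apart.

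Hcar2 and Hcar1, the ketone body and lactate receptors, were the members whose Abhd15 KO means lay farthest below WT. Hcar2 (probe set 17452705) read 4.98, 5.71 and 4.72 in WT replicates 1 to 3. It read 4.26, 4.06, 4.44, 4.16 and 3.54 in Abhd15 KO replicates 1 to 5. The groups did not overlap: the highest Abhd15 KO array lay below the lowest WT array. The means were 5.14 ± 0.52 (SD, n = 3) and 4.09 ± 0.34 (SD, n = 5), a difference of −1.05 log2 with a 95% confidence interval of −1.62 to −0.47, or 2.07-fold higher in WT. Of the 6 members, 1 was without overlap on the lower side. Over all tested genes that share was 1.19% on the lower side and 1.58% on the higher side.

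Hcar1 (probe set 17452709) read 5.99, 6.88 and 5.90 in WT. Its Abhd15 KO values were 5.46, 5.06, 5.95, 4.99 and 4.02. Here the groups overlapped through a single array, Abhd15 KO replicate 3, which lay above WT replicate 3. The other 4 lay below every WT array. The means were 6.26 ± 0.54 (SD, n = 3) and 5.09 ± 0.71 (SD, n = 5), a difference of −1.16 (95% confidence interval −2.06 to −0.27), or 2.24-fold higher in WT. WT replicate 2 was the highest array and Abhd15 KO replicate 5 the lowest in both genes.

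The size of both differences moved with WT replicate 2. Without that array the difference was −0.76 (−1.29 to −0.23) for Hcar2 and −0.85 (−1.84 to 0.13) for Hcar1. Without both arrays low in Angptl8 it was −0.80 (−1.38 to −0.22) for Hcar2 and −0.94 (−2.01 to 0.13) for Hcar1. Over the 8 fits that each left out 1 array, Hcar2 ranged from −1.26 to −0.76 and Hcar1 from −1.38 to −0.85. With limma and Benjamini-Hochberg adjustment, 0% of all tested genes passed a threshold of 0.05. Without adjustment, 2.23% of all tested genes were under 0.05 on the higher side and 1.76% on the lower side, 528 genes in all.

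**Figure D1:**
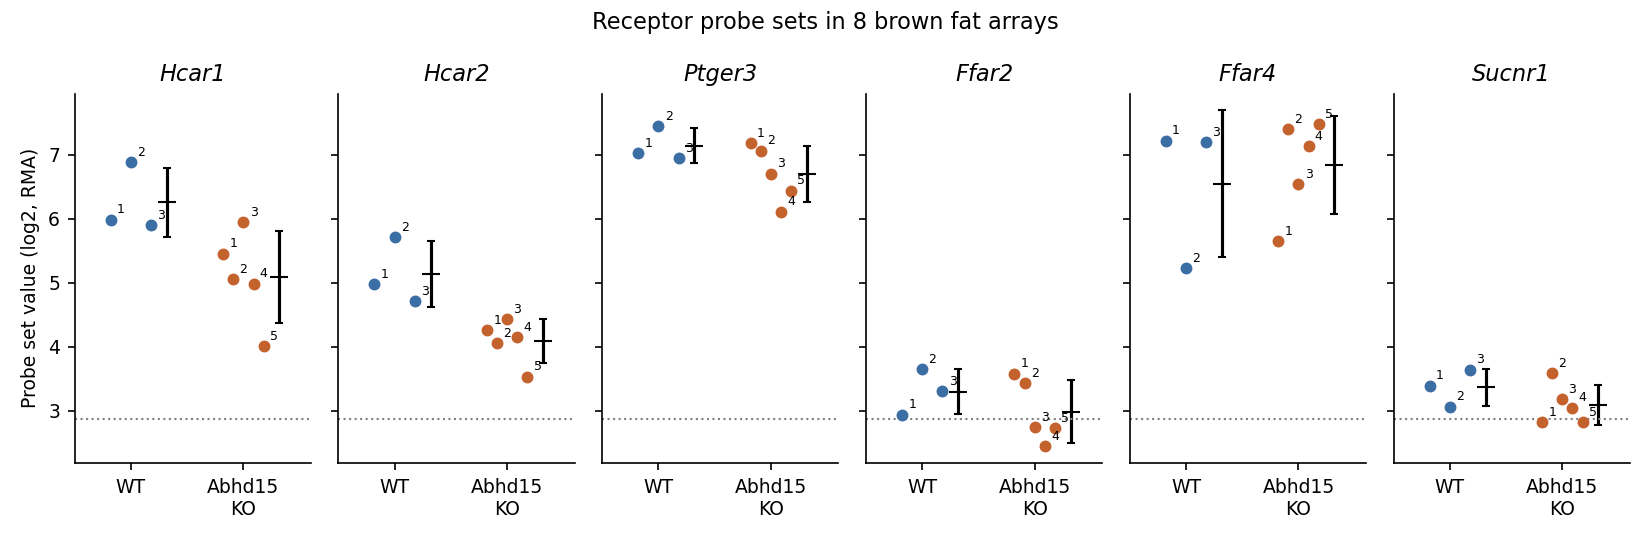
Probe set values (log2, RMA) of the 6 measured receptors, with a point per array numbered by replicate, 3 WT (blue) and 5 Abhd15 KO (orange), the black mark and bar beside each group its mean and SD, and the dotted line the dim limit of 2.88. Only Hcar2 shows no overlap between the groups, and the lowest Ffar4 points are WT replicate 2 and Abhd15 KO replicate 1.

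Hcar1 and Hcar2 also varied together among mice of the same label. With each group's mean removed, and with it the difference that chose the members, their deviations over the 8 arrays correlated at r = 0.93 (exact permutation p = 0.00278, two-sided, over the 720 orders within groups) and Spearman's rho = 0.95 (exact permutation p = 0.00556). Adjusted over the 15 pairs of members, these were p = 0.0417 for r and p = 0.0833 for rho in the exact permutation test. With the arrays farthest from the Hcar1 median left out, namely WT replicate 2 and Abhd15 KO replicate 5, r was 0.84. The points share array, RNA and normalization. Many genes ran as closely: 69 tested genes had r above 0.9 with Hcar2, and Hcar1 stood at rank 29 among them.

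**Figure D2:**
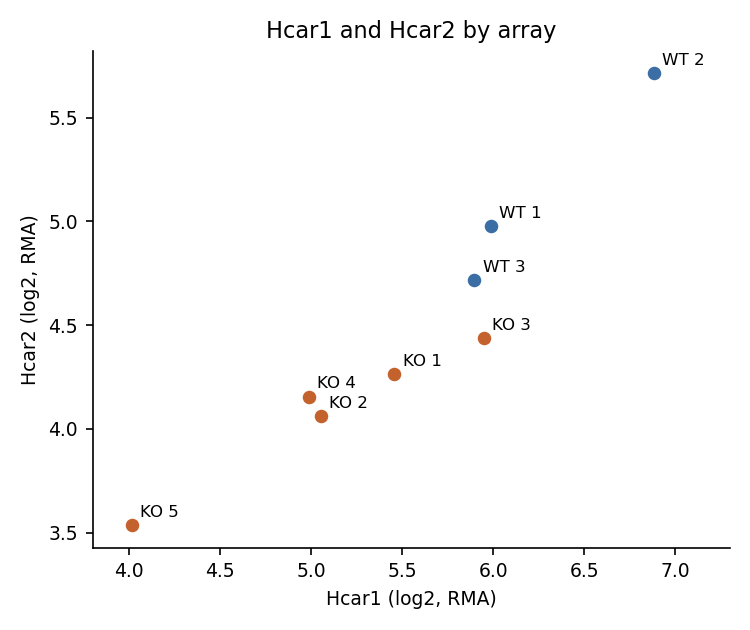
Hcar2 against Hcar1 (both log2, RMA), a point per array, WT in blue and Abhd15 KO in orange. The arrays run from Abhd15 KO replicate 5 (4.02 for Hcar1, 3.54 for Hcar2) to WT replicate 2 (6.88 and 5.71).

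The genes closest to Hcar2 in these deviations were Rdh8 (r = 0.99), the scavenger receptor family gene Scara3 (0.98), the mitochondrial ribosomal protein gene Mrpl32 (0.97), the vessel growth factor Angpt1 (0.96) and Strip2 (0.96). Rdh8 and Strip2 lay near the dim limit, at 3.02 and 2.95 in WT. None of the 5 shared the size of the Hcar2 difference between labels: their differences ran from −0.26 for Angpt1 to 0.06 for Rdh8. The genes closest to Hcar1 were Pofut2, an enzyme that adds fucose to proteins (r = 0.99), Wdr19 (0.98), N4bp2l1 (0.98), the ATP-gated channel gene P2rx4 (0.96) and Gramd1a (0.96), and their differences ran from −0.24 for Wdr19 to 0.19 for Pofut2. They are the best of 13222 genes each and carry no p for that reason.

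Hcar2 and Hcar1 are next to each other on chromosome 5 in the RefSeq gene table of assembly GRCm38.p6. Of the 5 protein-coding genes on each side, 9 of 10 were tested, and Kntc1 was dim. Among the 9, Abhd15 KO means were above WT in 4 and below in 5, with differences from −0.32 to 0.05, 0 at an adjusted p under 0.05 by limma and 0 at an unadjusted one. Denr, the neighbour beyond Hcar1, read 8.07 in WT and 7.98 in Abhd15 KO (−0.09, 95% confidence interval −0.40 to 0.22). Vps37b differed by −0.32 (−0.88 to 0.24). Whether probes of Hcar1 and Hcar2, which are relatives, pick up each other's transcript was not tested.

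Ptger3, the EP3 receptor for prostaglandin E2, differed less between the labels. It read 7.03, 7.45 and 6.95 in WT. Its Abhd15 KO values were 7.19, 7.07, 6.71, 6.11 and 6.44. Abhd15 KO replicates 1 and 2 lay within the WT range and the other 3 below it. The means were 7.14 ± 0.27 (SD, n = 3) and 6.70 ± 0.44 (SD, n = 5), a difference of −0.44 (95% confidence interval −0.998 to 0.12). Leaving out WT replicate 2 gave −0.29, as did leaving out Abhd15 KO replicate 4. Without both arrays low in Angptl8 it was −0.41.

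Ffar4, the long-chain fatty acid receptor, had its low values in the same 2 arrays as Angptl8. It read 7.22, 5.23 and 7.20 in WT. Its Abhd15 KO values were 5.65, 7.41, 6.54, 7.14 and 7.48. WT replicate 2 and Abhd15 KO replicate 1 were its lowest arrays, at 5.23 and 5.65 against 6.54 to 7.48 in the other 6, and they were the lowest in Angptl8 as well. The means were 6.55 ± 1.15 (SD, n = 3) and 6.84 ± 0.76 (SD, n = 5), a difference of 0.29 (95% confidence interval −0.92 to 1.51). It was −0.37 (−1.41 to 0.68) without WT replicate 2, the opposite direction, and −0.07 (−0.69 to 0.55) without both arrays.

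The spread of Ffar4 among mice of the same label was wide. Its residual SD of 0.91 log2 stood at percentile 99.2 of all tested genes, that of Hcar1 (0.66) at 98.0, Ffar2 (0.45) at 91.0, Hcar2 (0.41) at 87.1, Ptger3 (0.39) at 85.5 and Sucnr1 (0.31) at 71.8. Of 16 tested genes on a list of fasting and feeding responses, 5 had WT replicate 2 and Abhd15 KO replicate 1 as their lowest arrays (Angptl8, Srebf1, Mid1ip1, Fgf21 and Bhlhe41). Angptl8 is among these 5 by definition, because its values picked out the arrays. For 7 of the 16 these were the highest arrays (Angptl4, Pdk4, Fasn, Scd1, Cpt1a, Fos and Egr1). Fasn was so only narrowly, with 12.668 in WT replicate 2 and 12.686 in Abhd15 KO replicate 1, against up to 12.667 elsewhere. Pdk4, a kinase that fasting induces and that switches off pyruvate oxidation, reached 12.19 and 12.06 in these arrays, while the rest lay between 11.25 and 11.68. Among all tested genes 7.67% had them as the lowest arrays and 9.63% as the highest. Ptger3 and Ffar2 were among the latter.

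**Figure D3:**
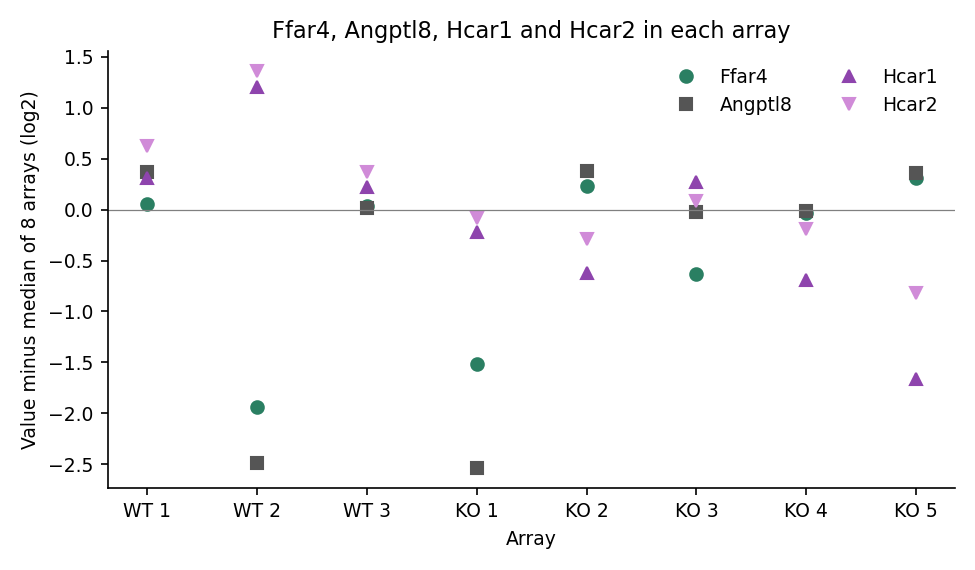
Ffar4, Angptl8, Hcar1 and Hcar2 in each of the 8 arrays, as the value minus the gene's median over the arrays (log2). The low points of Ffar4 and Angptl8 are in WT 2 and KO 1, where Hcar2 reads 5.71 and 4.26.

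Against Ffar4, the deviations of Hcar2 and Hcar1 ran the opposite way without passing adjustment over the 15 pairs. For Hcar2 and Ffar4, r was −0.81 (exact permutation p = 0.0319, adjusted p = 0.16) and rho −0.88 (exact permutation p = 0.0125, adjusted p = 0.0938). For Hcar1 and Ffar4, r was −0.74 (exact permutation p = 0.05, adjusted p = 0.188) and rho −0.81 (exact permutation p = 0.0264, adjusted p = 0.104). Without WT replicate 2 and Abhd15 KO replicate 5, r was −0.48 and −0.55. Ptger3 and Ffar2 had r = 0.92 (exact permutation p = 0.00972, adjusted p = 0.0729) and rho 0.88 (exact permutation p = 0.0278, adjusted p = 0.104), with r = 0.88 without Abhd15 KO replicates 4 and 5.

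Ffar2 and Sucnr1, the receptors for short-chain fatty acids and succinate, lay close to background. Ffar2 read 2.94, 3.65 and 3.31 in WT and 3.58, 3.44, 2.75, 2.45 and 2.73 in Abhd15 KO, and 5 of its 8 values were above the dim limit. All 3 WT arrays were above it and 3 of 5 Abhd15 KO arrays were not. The fitted difference was −0.31 (95% confidence interval −0.94 to 0.32), and it came to −0.14 when WT replicate 2 was left out, −0.18 when Abhd15 KO replicate 4 was and −0.49 when WT replicate 1 was. Sucnr1 read 3.39, 3.07 and 3.64 in WT and 2.82, 3.59, 3.19, 3.05 and 2.82 in Abhd15 KO, with 6 of 8 values above the limit. Its fitted difference was −0.27 (−0.73 to 0.18), −0.14 without WT replicate 3 and −0.42 without WT replicate 2. Values at this level bound the difference poorly. Without both arrays low in Angptl8 the differences were −0.29 for Ffar2 and −0.36 for Sucnr1.

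Macrophage and skeletal muscle markers mostly had lower means under the Abhd15 KO label, but the group ranges overlapped and the medians hinged on single arrays. Hcar2 is also known from macrophages and neutrophils. Of 16 macrophage markers 14 had a lower mean under the Abhd15 KO label and 2 a higher mean. The median difference was −0.22 (0.01 over all tested genes) and 0.03 without WT replicate 2. It was −0.48 with WT replicate 1 left out, −0.33 with Abhd15 KO replicate 1 left out and −0.10 with Abhd15 KO replicate 2 left out. Leaving out both arrays low in Angptl8 gave −0.13. The list had 0 genes at an adjusted p under 0.05 and 1, Mpeg1, at an unadjusted p (limma). The mean of the list lay between 5.00 and 5.76 in WT and between 4.69 and 5.58 in Abhd15 KO. WT replicate 2, the highest array for Hcar2, was the highest for macrophage markers too. Abhd15 KO replicate 1 was the second highest for these markers (5.58), with Hcar2 at 4.26, and WT replicate 1 was low in them (5.00), with Hcar2 at 4.98. With the macrophage mean as a covariate the Hcar2 difference was −0.97 (95% confidence interval −1.61 to −0.34) and that of Hcar1 −1.09 (−2.10 to −0.08). The difference of Ffar4 was then −0.14 (−1.10 to 0.82), the opposite direction to its value above. That of Sucnr1, close to background, moved from −0.27 (−0.73 to 0.18) to −0.44 (−0.79 to −0.08).

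Of 10 neutrophil markers 9 were dim, S100a8, S100a9 and Ly6g included, and the remaining Csf3r read 2.55 to 3.14 in WT and 2.87 to 3.84 in Abhd15 KO. Of 14 skeletal muscle markers 14 were lower, with a median of −0.54 and list means of 5.69 to 8.52 in WT and 4.90 to 7.79 in Abhd15 KO. Leaving out WT replicate 1 turned their median to 0.15, leaving out WT replicate 3 gave −1.39, and leaving out Abhd15 KO replicate 2 gave −0.09. Leaving out Abhd15 KO replicate 4 gave −0.83. With the muscle mean as a covariate Hcar2 differed by −1.02 (−1.65 to −0.39) and Hcar1 by −1.19 (−2.18 to −0.20). Adipocyte markers lay between 10.40 and 10.53 in WT and between 10.37 and 10.49 in Abhd15 KO, as the mean of 9 genes. Of these 3 were higher and 6 lower (median −0.03), and 1, Retn, had an unadjusted p under 0.05 (limma). Retn differed by −0.30 (−0.57 to −0.04). Of 8 tested white adipocyte markers 4 were higher and 4 lower (median −0.04). Their median was −0.27 without WT replicate 1, −0.22 without Abhd15 KO replicate 1 and 0.19 without WT replicate 2. Of 11 brown adipocyte markers 7 were higher and 4 lower (median 0.07). Of 10 endothelial markers 10 were higher (median 0.11), and of 10 smooth muscle and pericyte markers 6 were higher and 4 lower (0.11). Over all tested genes 6837 of 13223 were higher. The endothelial median was 0.04 without WT replicate 2 and 0.19 without WT replicate 1. The endothelial list means overlapped, at 6.80 to 7.09 in WT and 6.86 to 7.25 in Abhd15 KO. Mast cell markers were dim for 5 of 6 genes and lymphocyte markers for 4 of 9. The part of macrophages and muscle in the differences was not tested beyond these values.

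**Figure D4:**
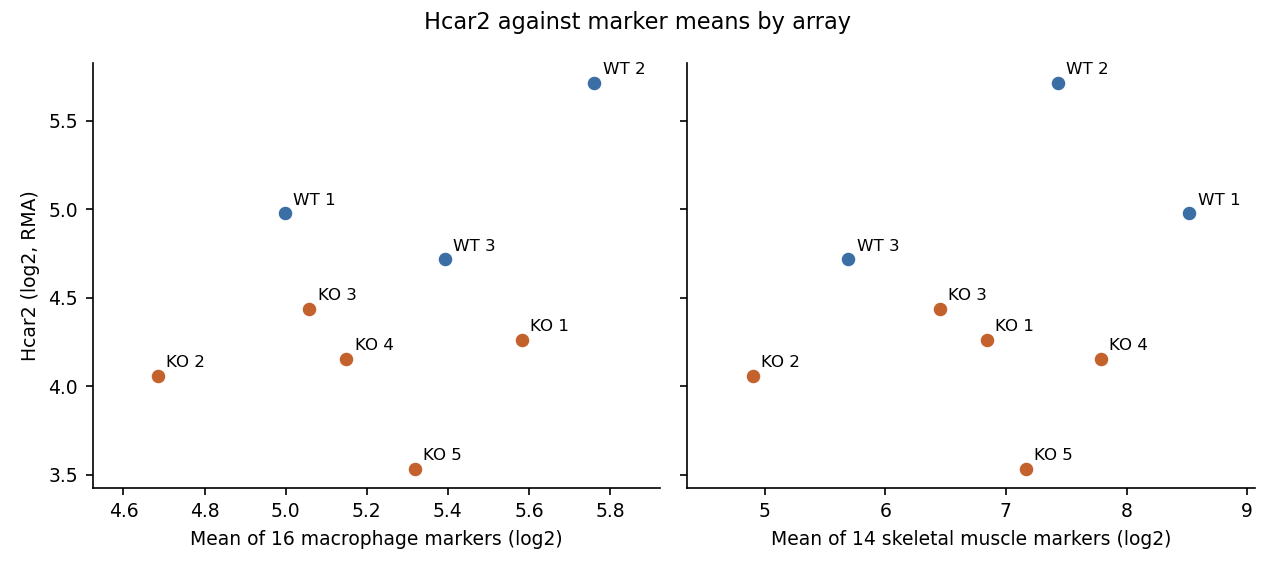
Hcar2 (log2, RMA) against the mean of 16 macrophage markers (left) and 14 skeletal muscle markers (right), a point per array, WT in blue and Abhd15 KO in orange. Abhd15 KO replicate 5 has the lowest Hcar2 value (3.54) with marker means inside the range of the other arrays.

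The other genes of the pathway were described from lists by role, and none passed the test: 0 of 70 tested genes had an adjusted p under 0.05 by limma, and 2 had an unadjusted one (Gnai1 and Gpr183). Both had lower Abhd15 KO means. Over all tested genes, 528 of 13223 had an unadjusted p under 0.05 in either direction, 1.76% on the lower side and 2.23% on the higher. With the fasting and feeding genes added, 2 of 86 pathway genes had an unadjusted p under 0.05. That count was 0 with Abhd15 KO replicate 4 left out and 0 with the replicate number as a block. It was 1 with Abhd15 KO replicate 5 left out and 1 with the macrophage covariate. The count rose to 3 with quantile normalization again, median centring or array weights, and with WT replicate 1 or WT replicate 3 left out. It was also 3, of 80 tested, with the filter that asks for all arrays above the dim limit. The median difference over all 13223 tested genes was 0.01. On the fasting and feeding list, the 2 genes of lowest p were Irs2, at −0.46 (−1.16 to 0.25), and Thrsp, at −0.12 (−0.40 to 0.16). Of 11 tested Gi proteins and receptor regulators, 4 were higher and 7 lower (median −0.03). Gnai1, an alpha subunit of Gi, read 7.77 ± 0.14 (SD, n = 3) and 7.40 ± 0.22 (SD, n = 5), a difference of −0.37 (95% confidence interval −0.70 to −0.04, limma adjusted p = 0.9997). Its relatives Gnai2 and Gnai3 differed by −0.09 (−0.40 to 0.23) and −0.01 (−0.22 to 0.20). Rgs16, which shortens Gi signals, differed by −0.43 (−1.29 to 0.44).

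Among other Gi-coupled receptors 3 were higher and 3 lower of 6 tested (median 0.04). Gpr183, the oxysterol receptor of immune cells, differed by −0.35 (−0.69 to −0.01) and Gabbr1, a subunit of the GABA-B receptor, by −0.34 (−0.71 to 0.03). Ffar3, Adora3, Gpr84, Cnr1 and Adra2c were dim. Of 5 tested receptors that raise cyclic AMP through Gs, 1 was higher and 4 lower (median −0.14). Tshr, the thyrotropin receptor, differed by −0.27 (−0.77 to 0.24) and Gipr, the receptor for the gut hormone GIP, by −0.26 (−0.70 to 0.18). Adrb3 had no probe set under its own symbol and was not analysed here.

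Downstream, from cyclic AMP to the lipases, 11 of 18 genes were higher and 7 lower (median 0.01). Pde3b differed by 0.03 (−0.21 to 0.28), the hormone-sensitive lipase gene Lipe by 0.01 (−0.21 to 0.23) and the first triglyceride lipase gene Pnpla2 by 0.07 (−0.16 to 0.30). The adenylyl cyclases Adcy5 and Adcy6 differed by −0.35 (−0.81 to 0.10) and 0.18 (−0.07 to 0.42). 

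Genes that make, move or remove the receptors' ligands came next, with 0 of them under an unadjusted p of 0.05. For lactate, 4 of 6 were higher (median 0.04), with the lactate dehydrogenase gene Ldhb at 0.19 (−0.09 to 0.46) and the pyruvate carrier gene Mpc1 at 0.12 (−0.12 to 0.36). For ketone bodies, 2 of 3 were higher (0.02), with Acat1, a thiolase, at 0.02 (−0.18 to 0.23) and Bdh2 at −0.06 (−0.38 to 0.26). For prostaglandin E2, 5 of 7 were higher (0.05). Plaat3, a fat cell phospholipase, was at −0.27 (−0.55 to 0.01) and Pla2g4a, which frees arachidonic acid, at 0.27 (−0.18 to 0.72). For adenosine, 6 of 6 were higher (0.15). The nucleoside carrier gene Slc29a1 was at 0.40 (−0.21 to 1.01) and the ectonucleotidase gene Entpd1 at 0.23 (−0.16 to 0.61). Slc29a1 read 7.21, 6.17 and 7.19 in WT replicates 1 to 3 and 6.79 to 7.70 in Abhd15 KO, so its difference leaned on WT replicate 2. Without that array the median of the adenosine list was 0.18. For succinate, 4 of 8 were higher (0.01), with Sucla2, a succinyl-CoA ligase subunit, at 0.09 (−0.13 to 0.31) and the dehydrogenase subunit Sdhd at 0.06 (−0.17 to 0.28).

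**Figure D5:**
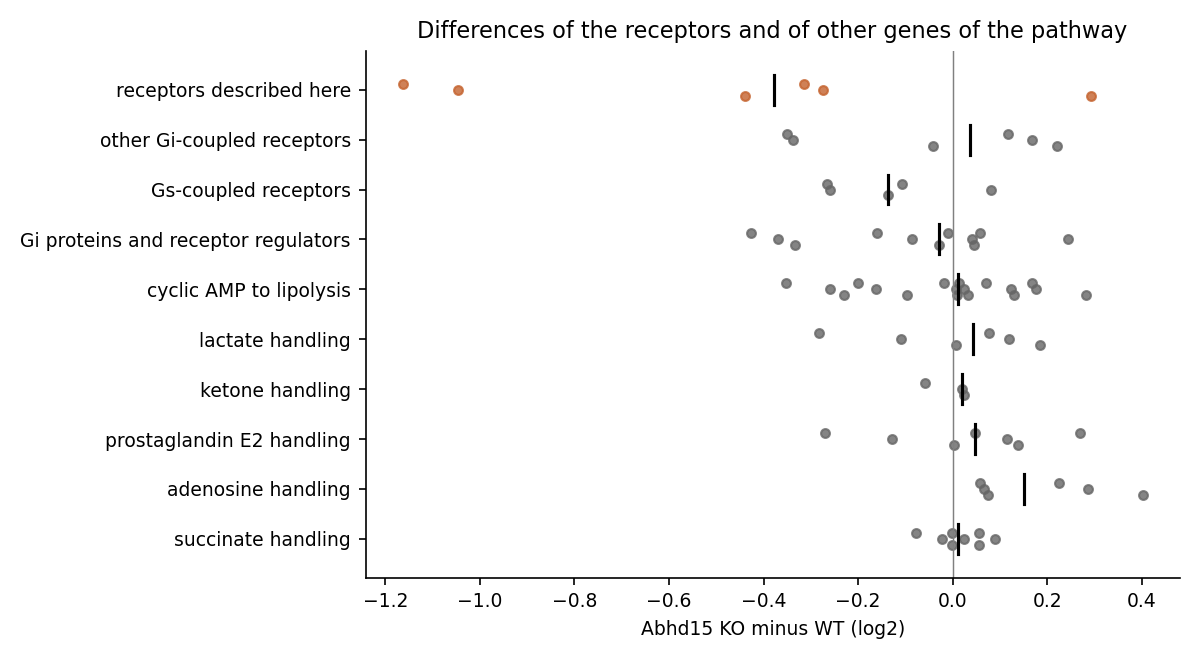
Difference between the labels (Abhd15 KO minus WT, log2) for the 6 measured receptors (orange) and for tested genes of the pathway lists (grey). The fasting and feeding list is not drawn. Each point is a gene and each black bar a list's median. Hcar1 (−1.16) and Hcar2 (−1.05) lie at the far left, while the grey points lie between −0.43 (Rgs16) and 0.40 (Slc29a1).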

How the data were processed

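RNA (200 ng per mouse) was measured on 1-colour arrays, and the table analysed holds log2 values that the authors deposited, 1 per probe set and array. The submitters' processing notes name RMA and oligo without a version, and the design text also names Expression Console. Quantile normalization hides a change shared by most genes. The sources used here state neither build nor probe positions. Of 41345 probe sets, 23521 had 1 gene symbol, 1814 several and 16010 none in the platform annotation, which can be old. A gene was read from its brightest single-symbol probe set, and each member had only 1. The dim limit was the 95th percentile of 1405 olfactory and vomeronasal probe sets.

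Differences (Abhd15 KO minus WT) and unadjusted 95% confidence intervals came from limma 3.58.1 in R 4.3.3 (lmFit, eBayes, group term only) on the 13223 tested genes, with Benjamini-Hochberg adjustment over all of them. The steps were tested on simulated data. Correlations used deviations from group means and every order within groups. The number of arrays and signal over background limit the precision. The labels give mice as separate animals, with no litter or cage.

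The members and lists were chosen with earlier results of these data known. The genes named were the 8 members, the 2 of lowest p per pathway list, preset genes of the pathway and the 5 genes most like Hcar2 and Hcar1, leaving out predicted models and small RNAs. Gene neighbours, promoter motifs and genes named for their number (Mpeg1, Retn, Denr, Vps37b, Pdk4, Fasn, Prdm16, Zic1, Dio2) were taken after values were seen.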

Additional observations from a re-analysis of the deposited data

Results flagged for a closer look

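In the 5 Abhd15 KO arrays, the lowest value of 3 of 44 genes looked at stood far from the other 4. Chance alone sets some of so many groups apart. Angptl8 read 7.90 in replicate 1, against 10.42 in the next lowest array. Pde3b read 10.68 in replicate 5, against 10.89. Strip2 read 2.02 in replicate 5, against 2.83, both under the dim limit. Replicate 5 was the lowest array in Hcar1 and Hcar2 as well.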

How the results depend on the processing

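The count of genes at an adjusted p under 0.05 by limma was 0 in the planned fit and in all 19 alternatives, for all genes and for the pathway genes. Unadjusted counts over all genes ran from 422 to 1019, the highest with no filter on dim genes. With the replicate number as a block (replicate block, 6 arrays) the count was 0, the Hcar2 difference −0.88 and the Hcar1 difference −0.77 (Ptger3 −0.16, Ffar2 −0.05, Sucnr1 −0.17), but the numbers do not pair the arrays: the deviations of same-numbered arrays correlated at −0.26, −0.10 and 0.02. Hcar2, Hcar1 and Ptger3 were lower in the arrays labelled Abhd15 KO under every alternative, and Ffar2 and Sucnr1 in every fit that held them. These fits reuse the arrays and the contrast that chose the members, so the constant direction carries no test. Ffar4 turned negative with the block (−0.02), without WT replicate 2 (−0.37), without both arrays low in Angptl8 (−0.07) and with the macrophage covariate (−0.14). Ffar2 and Sucnr1 were left out of the filter that asks for all 8 arrays above the dim limit.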
